A study of Mus musculus with 12 samples.

Results

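The genes described here encode the proteasome, its activators, its inhibitor and its assembly chaperones, read from a bulk RNA-seq count table of mouse paraspinal tissue. They are the rows whose symbol begins with Psm, a letter from a to g and a digit, without Psmb8, Psmb9 and Psmb10, the catalytic subunits of the immunoproteasome. The rule found 47 of the 18996 genes in the table, and 46 of them passed the filter on low counts that left 14765 genes for testing. Psmb11 did not pass. By role the 47 genes were 14 subunits of the 20S core, 2 core subunits of single tissues, 17 subunits of the 19S particle, 7 assembly chaperones, 4 activators and 1 inhibitor, and 2 genes that share the name pattern without being subunits.

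The table held 12 libraries, 4 each from No operation, SHAM and Laminectomy mice. No operation libraries were made from paraspinal soft tissue of mice that had no surgery. SHAM libraries came from paraspinal soft and scar tissue of mice whose soft tissue beside the spine had been cleared with the laminae left in place. Laminectomy libraries came from the same kind of tissue of mice whose laminae had also been removed at the junction of the thoracic and lumbar spine. The study's methods give BALB/c mice of both sexes, obtained at 5 to 7 weeks of age, and no transgene or drug was named for these groups. The scar was described at day 7 after surgery for the same groups. The methods state 3 mice per group while the labels number 4 samples in each, so all 4 were used. Beyond those numbers the labels do not say that each sample was a separate animal, and the p-values measure the spread between these samples.

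The proteasome is the protease of the cytosol and nucleus that takes apart proteins tagged with ubiquitin. Its 20S core is a barrel of outer alpha rings and inner beta rings, and the beta rings carry the cutting sites. The 19S particle caps the barrel, binds and removes the ubiquitin chains, and unfolds the substrate with a ring of ATPases. Other caps, PA28 and PA200, open the barrel without ATPases. In muscle the ubiquitin and proteasome route is known for its part in protein loss during wasting, and in immune cells interferon brings in the immunoproteasome, whose peptides feed MHC class I. When proteasome activity drops, the transcription factor Nfe2l1 is known to raise the genes of the subunits together.

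Library totals ran from 16802989 to 18077868 counts. A member's level is given in CPM, the count scaled to a common library total with edgeR's TMM factors, which ran from 0.849 to 1.13. The markers of skeletal muscle fibre, the labelled tissue's main cell, summed to 99403 to 141454 CPM in No operation, 2361 to 8963 CPM in SHAM and 2959 to 13321 CPM in Laminectomy, and 10 of 10 were lower in either operated group. The 8 macrophage and monocyte markers were all higher in both, with sums of 676 to 1758 CPM in No operation, 4479 to 7558 CPM in SHAM and 3413 to 5618 CPM in Laminectomy. Of 8 fibroblast markers 6 were higher and 1 was lower in either operated group, and none of the muscle, macrophage or fibroblast markers was at 0 in any library. Of 5 adipocyte markers 3 were lower in SHAM and 5 in Laminectomy, with sums of 1146 to 2179 CPM in No operation, 248.6 to 1295 CPM in SHAM and 72.5 to 401 CPM in Laminectomy. Of 6 cycling-cell markers 3 were higher in SHAM and 5 in Laminectomy, with sums of 9.32 to 360 CPM, 231 to 458 CPM and 387 to 574 CPM in the same order of groups. These shifts run along every comparison with No operation below. Their part in the results was not tested, and in bulk tissue fewer cells of a type and less RNA per cell cannot be told apart.

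The first comparison asked how the proteasome genes differed between SHAM and No operation. Of the 17 genes of the 19S particle 9 were lower, as were Psmb7 of the 20S core and the activator Psme4, while the activator Psme2 and the chaperones Psmd10 and Psmg4 rose. A gene was called at an adjusted p below 0.05 and a log2 fold change beyond 0.5 in either direction. Of the 46 members tested 4 were higher, with Psma8 at a few counts per library among them, and 11 lower, against 25.7% higher and 25.1% lower over all genes tested. The higher count is below its background share and the lower count is near it, and the members' median log2 fold change was -0.21 beside -0.00 for all genes.

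In Laminectomy against No operation 4 members were higher and 8 lower, where 24.2% of all genes were higher and 24.4% lower. The median log2 fold change of the members was -0.16, beside 0.01 over all genes. Both comparisons use the same 4 No operation libraries. Without the TMM factors the members split as 6 higher and 5 lower in SHAM and as 9 higher and 1 lower in Laminectomy, a scaling under which the median of all genes stood 0.25 higher in SHAM and 0.33 higher in Laminectomy on the log2 scale. The median of the members turned to 0.05 in SHAM and 0.16 in Laminectomy. In those fits 5179 of all genes were higher and 2671 lower in SHAM, and 5456 higher and 2347 lower in Laminectomy. Libraries of operated and No operation mice did not overlap for 12 lower and 3 higher members in SHAM (27.8% and 26.7% of all genes) and for 11 lower and 4 higher members in Laminectomy (29% and 27% of all genes).

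**Figure D1:**
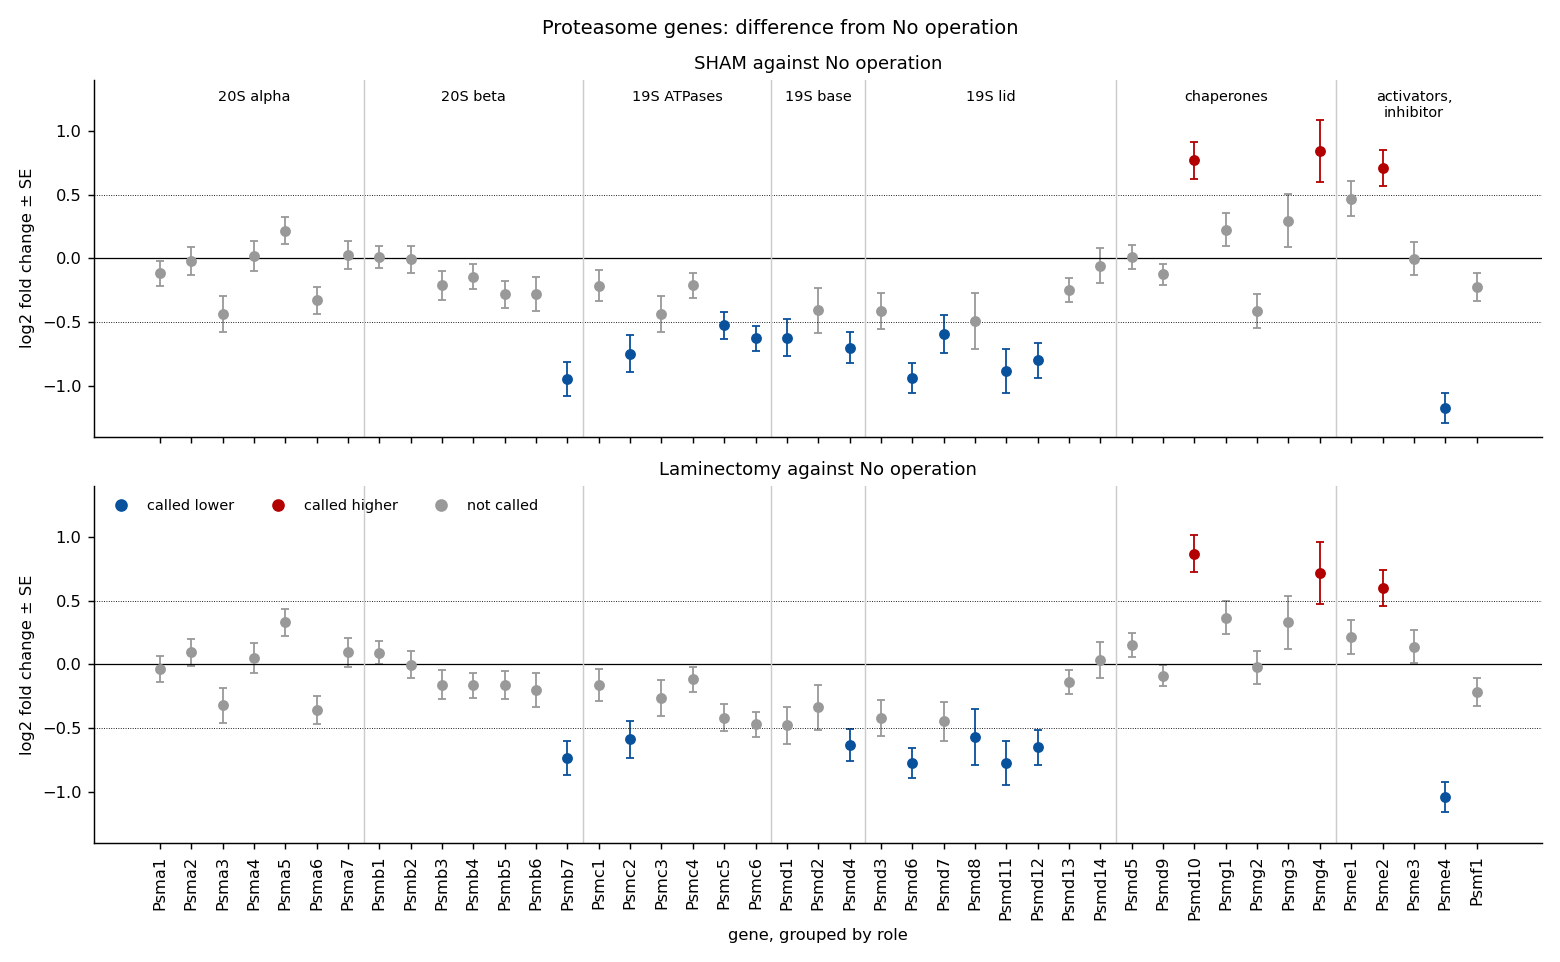
The log2 fold change with its standard error (y axis) of 43 proteasome genes grouped by role (x axis), for SHAM (upper panel) and Laminectomy (lower panel) against No operation, with 4 libraries in each group. Blue marks genes called lower, red genes called higher and grey genes not called, dotted lines lie at the fold threshold of 0.5, and the blue points gather among the 19S genes with Psmb7 and Psme4 outside that block.

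The promoters of these genes were searched for letters known from regulators of the proteasome, because the catalytic, 19S and activator genes moved in different ways. RefSeq promoters of build GRCm38.p6, with 250 bases before and 50 after the start, were at hand for 39 of the 47 genes. The core of the antioxidant response element, TGACNNNGC on either strand and the kind of site that Nfe2l1 binds, was found in Psmb5, Psmb6, Psmc6, Psmd12, Psmd9 and Psme4. That is 14.3% of 42 member promoters, beside 12.4% of all 32851 promoters. The interferon-stimulated response element, GAAA followed after any 2 bases by GAAA, was in Psmb3, Psmd4, Psmd9, Psme1 and Psmg4, or 11.9% of member promoters against 3.44% of all. Of these genes Psmd4 was lower and Psmg4 higher in both comparisons with No operation, and Psmb3, Psmd9 and Psme1 were not called. The gamma-activated site TTCNNNGAA, which reads the same on both strands, was in Psmd2 and Psmg1, 4.76% against 8.3%, and in Psmb8 outside the rule. Only in Psmd9 did one match overlap another motif searched, a GC box. The GC box, GGGCGG on either strand, was in 54.8% of member promoters against 35.7% of all, and the CCAAT box, CCAAT on either strand, in 33.3% against 37.4%. The windows below are written 5′ to 3′ on the strand of the gene with the match in capitals. They show 3 genes that were lower in SHAM with the antioxidant core, 1 core subunit that held it and was not called, and 2 interferon-type matches, in Psme1, which was not called, and in Psmb8, which was higher.
Psme4, chr11:30771675-30771794, plus strand, match from base -7: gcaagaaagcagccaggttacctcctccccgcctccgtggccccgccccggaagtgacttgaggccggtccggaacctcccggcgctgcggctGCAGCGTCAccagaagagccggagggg
Psmd12, chr11:107479278-107479397, plus strand, match from base -247: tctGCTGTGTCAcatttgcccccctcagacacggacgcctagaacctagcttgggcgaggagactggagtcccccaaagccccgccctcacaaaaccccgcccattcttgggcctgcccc
Psmc6, chr14:45329574-45329693, plus strand, match from base -227: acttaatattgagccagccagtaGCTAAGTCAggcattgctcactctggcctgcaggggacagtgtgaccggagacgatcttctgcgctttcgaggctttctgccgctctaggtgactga
Psmb5, chr14:54617996-54618115, minus strand, match from base -47: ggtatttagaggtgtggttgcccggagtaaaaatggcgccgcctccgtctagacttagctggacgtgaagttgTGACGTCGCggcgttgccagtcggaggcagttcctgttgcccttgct
Psme1, chr14:55578394-55578513, plus strand, match from base 10: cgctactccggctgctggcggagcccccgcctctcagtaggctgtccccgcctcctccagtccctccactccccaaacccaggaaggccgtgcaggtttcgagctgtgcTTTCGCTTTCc
Psmb8, chr17:34198045-34198164, plus strand, match from base -97: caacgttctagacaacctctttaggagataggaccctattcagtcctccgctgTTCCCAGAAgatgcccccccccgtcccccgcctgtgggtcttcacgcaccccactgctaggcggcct
Bases are counted from the start of the gene, with negative numbers before it. In Psme4, Psmd12, Psmc6 and Psme1 the capitals hold the motif as it reads on the opposite strand. A match describes letters in this window and not a bound site, and genes with the antioxidant core include Psmb5 and Psmb6, which were not called in either comparison.

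The alpha rings of the 20S core, which form the gate of the barrel, held 7 genes and none was called in either comparison, while 25.7% of all genes were higher and 25.1% lower in SHAM and 24.2% higher and 24.4% lower in Laminectomy. Their log2 fold changes ran from -0.44 to 0.21 in SHAM and from -0.36 to 0.33 in Laminectomy. Psma3 was the lowest in SHAM, with 219, 138, 172 and 181 CPM in the No operation libraries, 124, 116, 127 and 157 CPM in SHAM and 152, 135, 142 and 139 CPM in Laminectomy. Its SHAM value of -0.44 ± 0.14 (SE) passed the p threshold (adjusted p = 0.017) and not the fold threshold, and the SHAM library with 157 CPM lay within the No operation range. The transcript of Psma3 matched a processed pseudogene over 665 bases with 100% identity, so its reads may have been split or dropped in counting.

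Psma6 was the lowest alpha gene in Laminectomy, at 121, 103, 109 and 117 CPM in No operation, 97.8, 76.9, 84.1 and 100.04 CPM in SHAM and 97.1, 80.3, 93.1 and 81.5 CPM in Laminectomy. Every operated library was below every No operation library, and the log2 fold changes were -0.33 ± 0.11 in SHAM and -0.36 ± 0.11 in Laminectomy (adjusted p = 0.019 and 0.0132), short of the fold threshold. Psma5 was the highest, with 88.1, 75.3, 71.9 and 78.2 CPM in No operation, 84.1, 82.5, 86.7 and 110.5 CPM in SHAM and 105, 94.2, 99.2 and 94.9 CPM in Laminectomy. The 4 Laminectomy libraries were above all No operation libraries for Psma5, with a log2 fold change of 0.33 ± 0.11 (adjusted p = 0.0195), while the SHAM value of 0.21 had an adjusted p of 0.0987. Its transcript matched a processed pseudogene over 952 bases with 98.6% identity, and the gene shares exon bases with 1700010K24Rik on the opposite strand, so its count may be uncertain. Psma1, Psma2, Psma4 and Psma7 had overlapping groups in all 3 comparisons.

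The beta rings carry the chymotrypsin-like site in Psmb5, the caspase-like site in Psmb6 and the trypsin-like site in Psmb7. Of the 7 beta genes Psmb7 was called lower in both comparisons, where 25.1% and 24.4% of all genes were lower, and the other 6 were not called. Psmb7 stood at 191, 157, 181 and 205 CPM in No operation, 79.0, 81.7, 100.4 and 119 CPM in SHAM and 113, 107, 114 and 107 CPM in Laminectomy. No operated library reached the lowest No operation library. The level was 0.518 of No operation in SHAM (log2 fold change -0.95 ± 0.13, adjusted p = 0.000104) and 0.5997 in Laminectomy (-0.74 ± 0.13, adjusted p = 0.000648). Without the TMM factors Psmb7 stayed called lower in SHAM and lost its call in Laminectomy. Psmb7 shares exon bases with Nek6 on the opposite strand, and Nek6 rose, by 2.34 on the log2 scale in SHAM and 2.00 in Laminectomy. The study's methods state the counting tool's default settings, but 10.2% of the deposited values are not whole, which those settings do not give. How reads in the shared stretch were counted is therefore not known.

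The other catalytic subunits stayed closer to No operation. Psmb5 had 112, 85.5, 93.4 and 107 CPM in No operation, 74.1, 79.9, 80.1 and 93.2 CPM in SHAM and 98.3, 86.0, 82.5 and 89.1 CPM in Laminectomy. Its SHAM value of -0.28 ± 0.11 had an adjusted p of 0.0379 without reaching the fold threshold, and the groups overlapped. Psmb6 had 84.4, 71.7, 85.0 and 100.2 CPM in No operation, 59.0, 73.9, 66.3 and 81.9 CPM in SHAM and 86.9, 69.1, 66.5 and 74.9 CPM in Laminectomy, with log2 fold changes of -0.28 ± 0.13 and -0.20 ± 0.13 that did not pass. Psmb1, a structural beta subunit, had the highest log2 fold changes of this ring, with levels of 92.7, 76.4, 75.3 and 80.9 CPM in No operation, 75.8, 82.4, 80.2 and 89.2 CPM in SHAM and 89.0, 79.1, 88.1 and 90.3 CPM in Laminectomy. Its difference in SHAM was 0.01, with a 95% interval from -0.18 to 0.20.

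Levels per kilobase used the exon bases of transcripts that GENCODE tags as basic and protein-coding, or of all transcripts where none were. By that length the mean level of Psmb7 in No operation was 158 CPM per kilobase, above 111 for Psmb5 and 107 for Psmb6. In SHAM the levels per kilobase were 81.9 for Psmb7, 91.0 for Psmb5 and 88.1 for Psmb6, and in Laminectomy 94.8, 99.0 and 93.2 in the same order. Psmb7 was thus the highest in No operation, the lowest in SHAM and between the others in Laminectomy, where the levels lay close together. The Psmb5 transcript matched a processed pseudogene over 796 bases with 98.9% identity, so its level may be uncertain. The count ratio of Psmb7 to Psmb5 within a library, picked after the values were seen, was 1.70 to 1.94 in No operation, 1.02 to 1.28 in SHAM and 1.15 to 1.38 in Laminectomy. The operated libraries did not overlap No operation in this ratio, which restates the choice of a gene that was called lower and one that was not.

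The core subunits of single tissues were near or at 0 in paraspinal tissue. Psma8, known from the germ cells of the testis, had 0.276, 0.252, 0.466 and 0.14 CPM in No operation, 0.393, 1.34, 0.583 and 0.747 CPM in SHAM and 1.11, 0.771, 0.311 and 0.782 CPM in Laminectomy. It was called higher in both comparisons, by 1.41 ± 0.52 and 1.37 ± 0.52 on the log2 scale, on 2 to 7 counts per library in No operation and 6 to 25 in the operated groups. The groups overlapped, it passed the low-count filter through the operated libraries, and the calls were lost in 5 and 7 of the fits that left out 1 library. Psmb11, known from the epithelium of the thymic cortex, had at most 2 counts in any library and was not tested.

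With the TMM factors the 19S particle held most of the members called lower. In SHAM 9 of its 17 genes were lower and none was higher, where 25.1% of all genes were lower, and in Laminectomy 6 were lower and none was higher, where 24.4% of all genes were lower. Without the TMM factors 3 of the 17 were called lower in SHAM (Psmd6, Psmd11 and Psmd12) and 0 in Laminectomy. In those fits 2671 and 2347 of the 14765 genes tested were called lower. The median log2 fold change of the 17 genes was -0.53 in SHAM and -0.45 in Laminectomy, while that of the 14 core genes was -0.13 and -0.10. All 17 values were below 0 in SHAM and 16 in Laminectomy. Sem1, a small lid subunit that the name rule misses and that is named here after its values were seen, stood above No operation in all 8 operated libraries, at 0.47 ± 0.13 in SHAM and in Laminectomy (adjusted p = 0.00776 and 0.00779), short of the fold threshold. Adrm1, another 19S subunit that the rule misses and that is also named after its values were seen, went the other way. It lay at 80.6 to 124 CPM in No operation, 63.6 to 74.9 CPM in SHAM and 60.5 to 74.1 CPM in Laminectomy. Without the TMM factors 13 and 12 of the 17 values were below 0, the median of the 17 was -0.26 and -0.12, and the core median turned to 0.13 and 0.22.

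The balance of the particle and the core within each library does not depend on that scaling. The summed CPM of the 14 core genes divided by that of the 17 particle genes was 0.508, 0.576, 0.549 and 0.561 in No operation. It was 0.682, 0.706, 0.629 and 0.666 in SHAM and 0.654, 0.634, 0.652 and 0.704 in Laminectomy. Each operated library was above each No operation library, and SHAM and Laminectomy overlapped. The same change can come from the most abundant members, since the sum weights genes by their level.

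Of the 6 ATPases, the ring that threads the substrate into the core, 3 were lower in SHAM (Psmc2, Psmc6 and Psmc5) and 1 in Laminectomy (Psmc2), where 25.1% and 24.4% of all genes were lower. Psmc2 had 160, 113, 133 and 150 CPM in No operation, 78.5, 67.7, 86.5 and 98.1 CPM in SHAM and 98.5, 90.6, 103 and 77.05 CPM in Laminectomy. Its log2 fold changes were -0.75 ± 0.14 (adjusted p = 0.000908) and -0.59 ± 0.14 (adjusted p = 0.00433), with no overlap between operated and No operation libraries. Psmc6 had 151, 120, 132 and 151 CPM in No operation, 86.3, 82.0, 90.5 and 99.3 CPM in SHAM and 96.9, 97.1, 108 and 97.3 CPM in Laminectomy.

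Psmc6 also did not overlap, and its log2 fold change of -0.63 ± 0.10 in SHAM was called (adjusted p = 0.000217), while -0.47 ± 0.10 in Laminectomy (adjusted p = 0.00161) fell short of the fold threshold. The value for Psmc5 was -0.53 in SHAM, and its call was lost without No operation 1 or without SHAM 1, where it moved to as little as -0.45. Psmc4 was the ATPase closest to No operation, with 97.6, 77.6, 82.7 and 83.3 CPM there, 68.8, 70.2, 72.2 and 83.1 CPM in SHAM and 88.7, 77.9, 73.0 and 74.96 CPM in Laminectomy. Psmc4, Psmc1 and Psmc3 had overlapping groups and were not called. Psmc3 shares exon bases with Slc39a13 on the opposite strand.

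In the base, Psmd1 and Psmd2 are large scaffolds for ubiquitin receptors, and Psmd4 is itself a receptor for ubiquitin chains. Psmd4 had 194, 123, 144 and 152 CPM in No operation, 84.2, 96.5, 96.2 and 100.2 CPM in SHAM and 102, 94.4, 101 and 98.7 CPM in Laminectomy. All operated libraries lay below the lowest No operation library, with log2 fold changes of -0.70 ± 0.12 (adjusted p = 0.000503) and -0.63 ± 0.12 (adjusted p = 0.0011). The Laminectomy call of Psmd4 was lost without No operation 1, where the value was -0.50 and just inside the fold threshold. Psmd1 fell by 0.62 in SHAM and its Laminectomy value was -0.48, and it shares exon bases with Gm21972 on the same strand. Psmd2 had 432, 270, 321 and 314 CPM in No operation, 253, 189, 275 and 291 CPM in SHAM and 306, 267, 268 and 218 CPM in Laminectomy. These groups overlapped for Psmd2, which was not called and whose transcript matched a transcribed processed pseudogene over 2726 bases with 96.4% identity.

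The lid holds Psmd14, the enzyme that cuts ubiquitin chains from the substrate, among scaffold subunits. In SHAM 4 of its 8 genes were lower (Psmd6, Psmd11, Psmd12 and Psmd7), and in Laminectomy 4 (Psmd6, Psmd11, Psmd12 and Psmd8), where 25.1% and 24.4% of all genes were lower. Psmd6 moved the most, with 142, 124, 146 and 152 CPM in No operation, 69.0, 60.8, 77.4 and 86.6 CPM in SHAM and 74.8, 80.8, 90.3 and 83.1 CPM in Laminectomy. Operated and No operation libraries left a gap between 90.3 and 124 CPM, and the log2 fold changes were -0.94 ± 0.12 (adjusted p = 4.71e-05) and -0.78 ± 0.12 (adjusted p = 0.000194).

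Psmd14 was at the other end of the lid, at 83.7, 69.0, 78.1 and 71.2 CPM in No operation, 72.9, 54.8, 73.7 and 88.8 CPM in SHAM and 87.7, 72.6, 81.4 and 67.0 CPM in Laminectomy. Its log2 fold changes were -0.06, with a 95% interval from -0.36 to 0.25, and 0.03, with an interval from -0.27 to 0.34. The count ratio of Psmd6 to Psmd14 within a library, picked after the values were seen, was 1.70 to 2.13 in No operation, 0.945 to 1.11 in SHAM and 0.852 to 1.24 in Laminectomy. The ratio did not overlap between operated and No operation libraries, which restates the choice of the genes at the ends of the lid.

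Psmd11 and Psmd12, structural subunits of the lid, fell by 0.88 and 0.80 in SHAM and by 0.77 and 0.65 in Laminectomy on the log2 scale, with no overlap. The Psmd11 transcript matched the processed transcript A730017L22Rik over 1501 bases with 97.9% identity. It also matched a processed pseudogene over 1269 bases with 98.0% identity, so part of its reads may be uncertain. Psmd7, the partner of Psmd14, fell by 0.60 in SHAM, and that call was lost without No operation 1, where the value was -0.46. Psmd8 was called lower in Laminectomy at -0.57 ± 0.22 (adjusted p = 0.0428), but its groups overlapped and the call was lost in 8 of the 12 fits that left out 1 library. No operation 1 had 292 CPM of Psmd8, and the other 3 No operation libraries had 125 to 168 CPM. Without that library the value was -0.26.

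**Figure D2:**
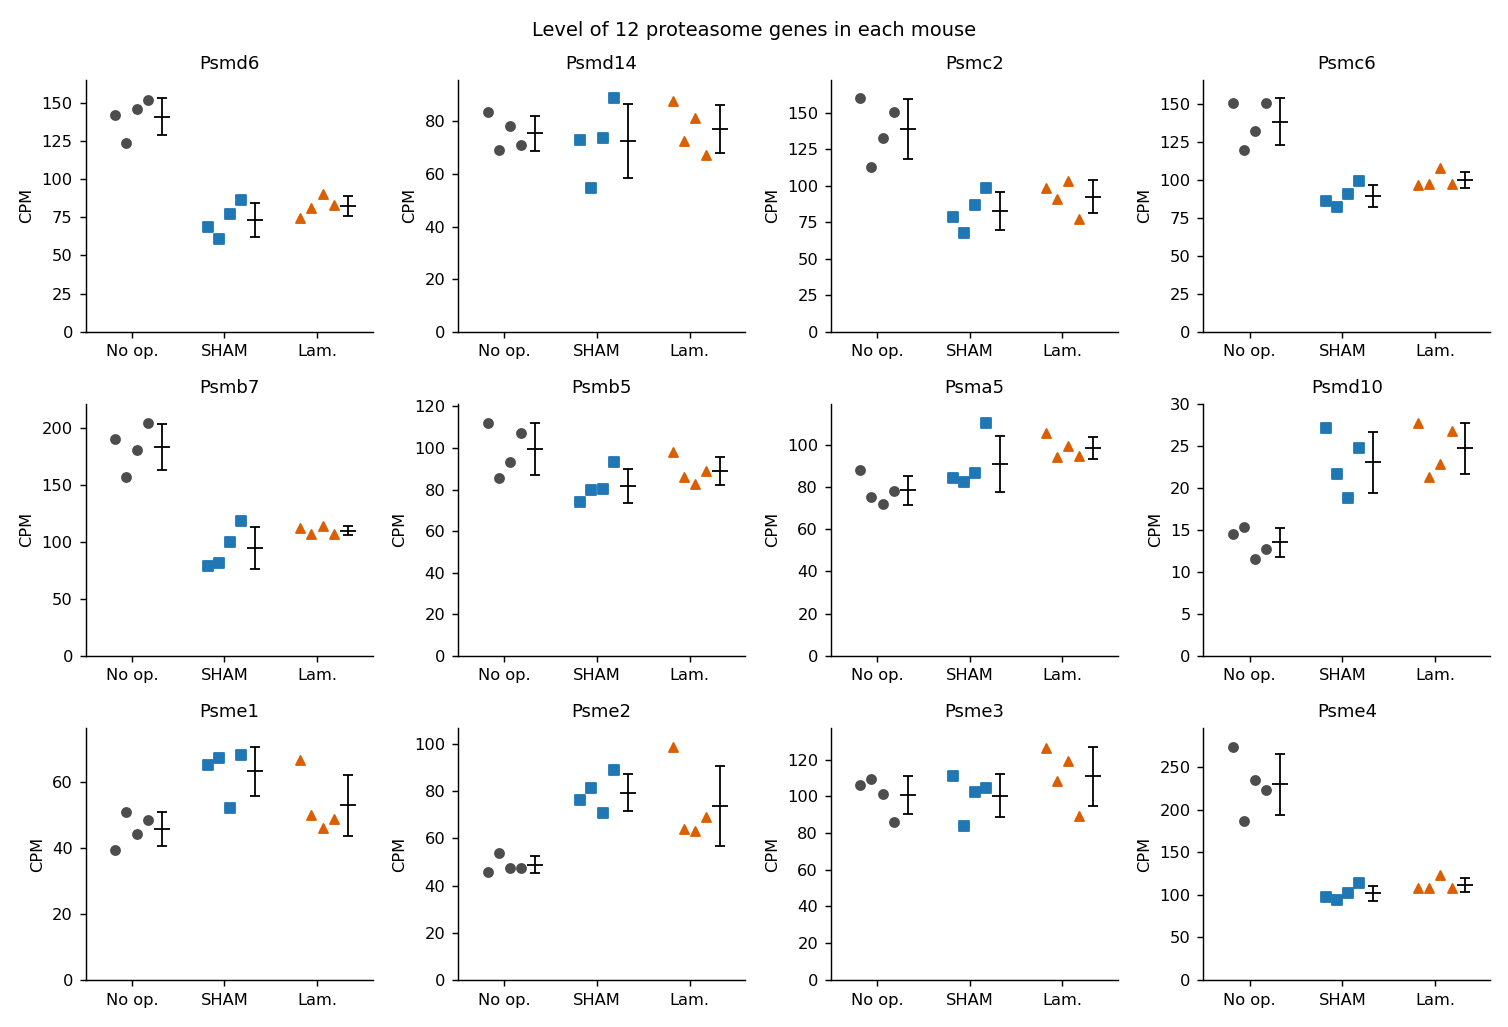
The level in CPM (y axis, from 0) of 12 proteasome genes in every library of No operation, SHAM and Laminectomy (x axis), with 1 point per library, 4 per group, and the mean with SD beside them. Psmd6, Psmc2, Psmc6, Psmb7 and Psme4 are lower in all 8 operated libraries than in any No operation library, Psmd10 and Psme2 are higher in all 8, and Psmd14, Psmb5 and Psme3 overlap.

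The assembly chaperones help to build the rings and leave the finished particle. Of 7 chaperones 2 were higher in SHAM and 2 in Laminectomy, Psmd10 and Psmg4 in each, and none was lower. These counts are near the shares over all genes, 25.7% higher in SHAM and 24.2% in Laminectomy. Psmd10, gankyrin, which holds an ATPase during assembly of the base, had 14.5, 15.4, 11.5 and 12.8 CPM in No operation, 27.1, 21.6, 18.7 and 24.7 CPM in SHAM and 27.8, 21.3, 22.9 and 26.8 CPM in Laminectomy. Every operated library was above the highest No operation library, by a fold of 1.70 in SHAM (log2 fold change 0.77 ± 0.14, adjusted p = 0.000713) and 1.83 in Laminectomy (0.87 ± 0.14, adjusted p = 0.000361).

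Psmg4, part of a chaperone pair for the alpha ring, had 3.72, 2.14, 2.53 and 2.66 CPM in No operation, 5.002, 7.06, 3.39 and 4.38 CPM in SHAM and 5.08, 4.47, 4.40 and 4.22 CPM in Laminectomy. The SHAM library with 3.39 CPM lay below the highest No operation library. The log2 fold changes of Psmg4 were 0.84 ± 0.25 (adjusted p = 0.011) and 0.72 ± 0.25 (adjusted p = 0.0252), and the Laminectomy call was lost without No operation 2, No operation 3 or Laminectomy 1.

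Psmg2, which pairs with Psmg1 on the alpha ring, had the lowest chaperone value in SHAM. It stood at 21.2, 16.7, 18.8 and 22.4 CPM in No operation, 11.9, 17.5, 14.5 and 15.4 CPM in SHAM and 19.5, 17.6, 20.5 and 20.1 CPM in Laminectomy. The SHAM difference of -0.41 ± 0.13 had an adjusted p of 0.0176 without reaching the fold threshold, and 1 SHAM library lay within the No operation range. Psmd9, a chaperone of the ATPase ring, had 26.2, 27.8, 25.4 and 29.7 CPM in No operation, 24.9, 25.5, 24.4 and 25.2 CPM in SHAM and 26.6, 27.1, 23.1 and 25.8 CPM in Laminectomy. It was the lowest chaperone in Laminectomy, at -0.09 with a 95% interval from -0.27 to 0.09. Psmd5, Psmg1 and Psmg3 were not called, with log2 fold changes from 0.01 to 0.37 in both comparisons.

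Among the activators Psme4 fell further than any other member and Psme2 rose. PA28 is made of Psme1 and Psme2, which interferon induces, or of Psme3 in the nucleus, and PA200 is Psme4, a single large protein known from DNA repair and from spermatids. Psme4 had 274, 187, 235 and 223 CPM in No operation, 98.0, 93.5, 103 and 114 CPM in SHAM and 108, 108, 123 and 108 CPM in Laminectomy. The lowest No operation library was above the highest operated library. The level was 0.443 of No operation in SHAM (log2 fold change -1.17 ± 0.12, adjusted p = 1.51e-05) and 0.486 in Laminectomy (-1.04 ± 0.12, adjusted p = 3.78e-05).

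Psme2 rose in both, with 45.8, 54.0, 47.6 and 47.6 CPM in No operation, 76.5, 81.5, 70.8 and 89.1 CPM in SHAM and 98.9, 64.0, 63.1 and 69.0 CPM in Laminectomy. All operated libraries were above all No operation libraries. The fold was 1.63 in SHAM (log2 fold change 0.70 ± 0.14, adjusted p = 0.0012) and 1.51 in Laminectomy (0.60 ± 0.14, adjusted p = 0.00361). The Laminectomy call of Psme2 was lost without Laminectomy 1, where the value was 0.43. Psme2 and Psme2b transcripts were 99.4% identical over 794 bases, and Psme2b had at most 1.35 CPM in any library.

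Psme1 had 39.3, 50.8, 44.1 and 48.3 CPM in No operation, 64.9, 67.2, 52.0 and 68.1 CPM in SHAM and 66.5, 50.02, 46.1 and 48.8 CPM in Laminectomy. The SHAM libraries were all above No operation, at 0.47 ± 0.14 (adjusted p = 0.0106), just under the fold threshold. In Laminectomy 1 of the 4 libraries stood above the No operation range and the value was 0.21 ± 0.14, which did not pass. Psme1 shares exon bases with Emc9 on the opposite strand, which fell by 1.37 in SHAM.

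Psme3 had 106, 109, 101 and 85.9 CPM in No operation, 111, 83.8, 102 and 104 CPM in SHAM and 127, 108, 119 and 89.3 CPM in Laminectomy. Its groups overlapped, and the 95% interval of the SHAM difference ran from -0.29 to 0.28. Psmf1, the inhibitor PI31, had 27.9, 30.1, 27.8 and 24.6 CPM in No operation, 22.1, 21.3, 24.0 and 27.0 CPM in SHAM and 25.99, 23.3, 25.3 and 20.5 CPM in Laminectomy. Neither of its differences, -0.23 ± 0.11 and -0.21 ± 0.11, passed the test.

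Per kilobase of exon, the mean levels of Psme1, Psme2, Psme3 and Psme4 in No operation were 41.0, 49.95, 37.8 and 35.4 CPM per kilobase. In SHAM they were 56.7, 81.4, 37.7 and 15.7, and in Laminectomy 47.5, 75.6, 41.6 and 17.2. The count ratio of Psme2 to Psme4 within a library, picked after the values were seen, was 0.167 to 0.289 in No operation, 0.689 to 0.872 in SHAM and 0.511 to 0.918 in Laminectomy. The lack of overlap restates the choice of a gene that was called higher and one that was called lower.

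The 2 genes that only share the name pattern were Psmc3ip, a partner of meiotic recombination proteins, and Psme2b, a near copy of Psme2. Psmc3ip had 2.34, 3.02, 1.53 and 3.15 CPM in No operation, 2.42, 3.10, 2.91 and 3.68 CPM in SHAM and 4.45, 3.80, 3.94 and 3.08 CPM in Laminectomy. Psme2b had 1.17, 1.01, 0.333 and 0.28 CPM in No operation, 1.35, 0.107, 1.27 and 1.33 CPM in SHAM and 0.635, 0.36, 0.518 and 0.521 CPM in Laminectomy. Both overlapped between groups and neither was called.

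The immunoproteasome subunits left out by the rule replace Psmb5, Psmb6 and Psmb7 in new core particles, as Psmb8, Psmb9 and Psmb10. All 3 were higher in SHAM, with log2 fold changes of 1.24, 0.98 and 0.91, and in Laminectomy, with 0.83, 0.62 and 0.57. Psmb8 had 20.5, 31.0, 20.5 and 20.7 CPM in No operation, 60.2, 59.5, 42.1 and 57.7 CPM in SHAM and 60.7, 38.1, 34.3 and 32.4 CPM in Laminectomy. Psmb9 had 7.24, 11.7, 6.59 and 6.10 CPM in No operation, 17.4, 17.3, 11.9 and 16.0 CPM in SHAM and 16.5, 10.8, 10.9 and 10.5 CPM in Laminectomy. No operation 2 was the highest No operation library for both, and for Psmb9 it lay above 3 of the 4 Laminectomy libraries. On the opposite strand Psmb8 shares exon bases with Gm20496 and Psmb9 with Tap1, so their counts may be uncertain. Psmb10 had 21.2, 23.4, 17.9 and 19.2 CPM in No operation, 34.7, 47.0, 31.6 and 39.8 CPM in SHAM and 40.1, 30.3, 24.0 and 26.9 CPM in Laminectomy, with no overlap with No operation.

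Each pair of an immunoproteasome subunit and the subunit it replaces was compared as a count ratio within the library, with an exact two-sided permutation test of the log2 ratios. With 4 libraries against 4 the smallest p is 0.0286, and p-values were adjusted over 9 tests. Psmb10/Psmb7 was 0.111, 0.149, 0.0997 and 0.0942 in No operation, 0.440, 0.575, 0.316 and 0.336 in SHAM and 0.357, 0.284, 0.212 and 0.253 in Laminectomy. The operated libraries were all above No operation, by a fold of 3.62 in SHAM and 2.43 in Laminectomy (exact permutation p = 0.0286, adjusted p = 0.0643 for each), the smallest p the design allows.

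Psmb8/Psmb5 was 2.88-fold higher in SHAM (exact permutation p = 0.0286, adjusted p = 0.0643, higher in 4 of 4 libraries) and 1.95-fold in Laminectomy (exact permutation p = 0.0571, adjusted p = 0.0735). Psmb9/Psmb6 was 2.44-fold higher in SHAM (exact permutation p = 0.0286, adjusted p = 0.0643) and 1.78-fold in Laminectomy (exact permutation p = 0.0857, adjusted p = 0.0857). In Laminectomy No operation 2, at 0.364 for Psmb8/Psmb5 and 0.165 for Psmb9/Psmb6, overlapped the operated libraries. Laminectomy stood at 0.677, 0.731 and 0.671 of SHAM for the 3 ratios in the order given by the subunit number, with exact permutation p = 0.0571, 0.0571 and 0.0857. None of the 9 tests passed an adjusted p of 0.05.

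**Figure D3:**
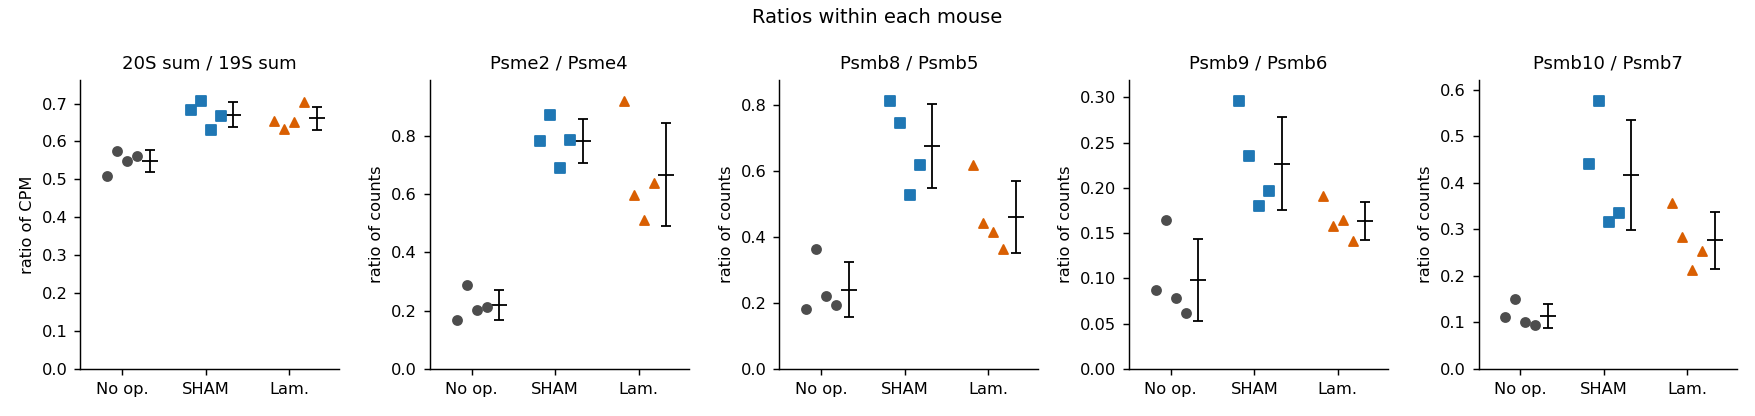
Ratios within each library (y axes, from 0) in No operation, SHAM and Laminectomy, with 1 point per library, 4 per group, and the mean with SD beside them. The sum of the 20S core genes over that of the 19S genes, Psme2/Psme4 and Psmb10/Psmb7 do not overlap between No operation and the operated groups, and 1 No operation library overlaps Laminectomy in Psmb8/Psmb5 and Psmb9/Psmb6; Psme2/Psme4 was picked after the values were seen, and its gap restates that choice.

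The third comparison, Laminectomy against SHAM, asked whether removal of the laminae changed these genes beyond the surgery of the soft tissue. By edgeR's quasi-likelihood test 0 of 46 members were called, as for all genes tested (0% called). At an unadjusted p below 0.05 there was 1 member by edgeR and 1 by DESeq2, among 2359 genes by edgeR, and DESeq2 also called 0 members and 696 of all genes. The median log2 fold change of the members was 0.09. The member with the smallest p was Psmg2, whose 4 Laminectomy libraries, 17.6 CPM and above, lay above the 4 SHAM libraries, 17.5 CPM and below. Its log2 fold change was 0.39 ± 0.13, with an adjusted p of 0.195. It was the 1 member without overlap, where 5.05% of all genes were higher and 5.07% lower without overlap. Psme1 came next, at -0.25 ± 0.13 with a 95% interval from -0.55 to 0.04, and then Psmc6, at 0.16 ± 0.10 with an interval from -0.06 to 0.37. For Psme4 the interval ran from -0.13 to 0.39 and for Psmb7 from -0.08 to 0.50.

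Of the genes that work with the proteasome, 14 partners outside the rule are reported. In SHAM 4 were lower and none higher, and the counts were the same in Laminectomy. The lower counts are near the shares over all genes, 25.1% in SHAM and 24.4% in Laminectomy. Zfand5, which raises proteasome activity in wasting muscle, had 352, 329, 344 and 404 CPM in No operation, 118, 114, 109 and 128 CPM in SHAM and 154, 124, 132 and 151 CPM in Laminectomy. Its log2 fold changes were -1.61 ± 0.11 and -1.35 ± 0.11 (adjusted p = 2.11e-06 and 6.04e-06). Ecpas, a large adaptor that binds the 26S proteasome, had 238, 195, 236 and 261 CPM in No operation, 103, 101, 99.5 and 109 CPM in SHAM and 93.8, 98.5, 116 and 102 CPM in Laminectomy. It fell by 1.17 and 1.18 on the log2 scale. The No operation libraries of both genes lay far above all operated libraries.

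Of 5 genes that regulate the proteasome genes, Nfe2l1 with Ddi2, Ngly1 and Vcp of its route and the related factor Nfe2l2, 3 were lower in SHAM, 2 in Laminectomy and none was higher, beside 25.1% and 24.4% of all genes lower. Nfe2l2 stood apart in SHAM, where all 4 libraries were above No operation at 0.45 ± 0.13 (adjusted p = 0.0114), short of the fold threshold, and its Laminectomy value was 0.06. Nfe2l1 had 920, 490, 592 and 605 CPM in No operation, 215, 212, 274 and 256 CPM in SHAM and 240, 290, 262 and 260 CPM in Laminectomy. The log2 fold changes were -1.45 ± 0.18 (adjusted p = 5.27e-05) and -1.31 ± 0.18 (adjusted p = 0.000125), with no overlap. Ngly1, the enzyme that strips sugars from Nfe2l1 protein, had 74.6, 68.7, 74.7 and 71.7 CPM in No operation, 41.1, 40.1, 45.0 and 41.4 CPM in SHAM and 36.1, 41.4, 47.2 and 44.7 CPM in Laminectomy. It fell by 0.79 and 0.77. Vcp, the ATPase that pulls proteins out for degradation, was the third gene lower in SHAM, by 0.53.

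Of 5 ubiquitin and E1 genes 1 was higher in SHAM and 2 in Laminectomy, and none was lower, where 25.7% and 24.2% of all genes were higher. Ubb, a ubiquitin gene named here after its values were seen, was below No operation in all 8 operated libraries, at -0.40 ± 0.12 and -0.46 ± 0.12 (adjusted p = 0.0119 and 0.00601), short of the fold threshold. Rps27a, ubiquitin fused to a ribosomal protein, rose by 0.65 and 0.71 on the log2 scale, from 282, 283, 280 and 279 CPM in No operation to 439, 520, 358 and 450 CPM in SHAM and 427, 372, 487 and 551 CPM in Laminectomy. Uba6, an enzyme that activates ubiquitin, had 13.8, 11.3, 13.1 and 12.97 CPM in No operation, 20.3, 13.2, 17.0 and 16.5 CPM in SHAM and 17.6, 16.9, 21.3 and 18.3 CPM in Laminectomy. It rose in Laminectomy by 0.54 ± 0.14 (adjusted p = 0.0056) with no overlap, and its SHAM value of 0.39 ± 0.14 (adjusted p = 0.0264) was short of the fold threshold, with 1 SHAM library within the No operation range.

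**Figure D4:**
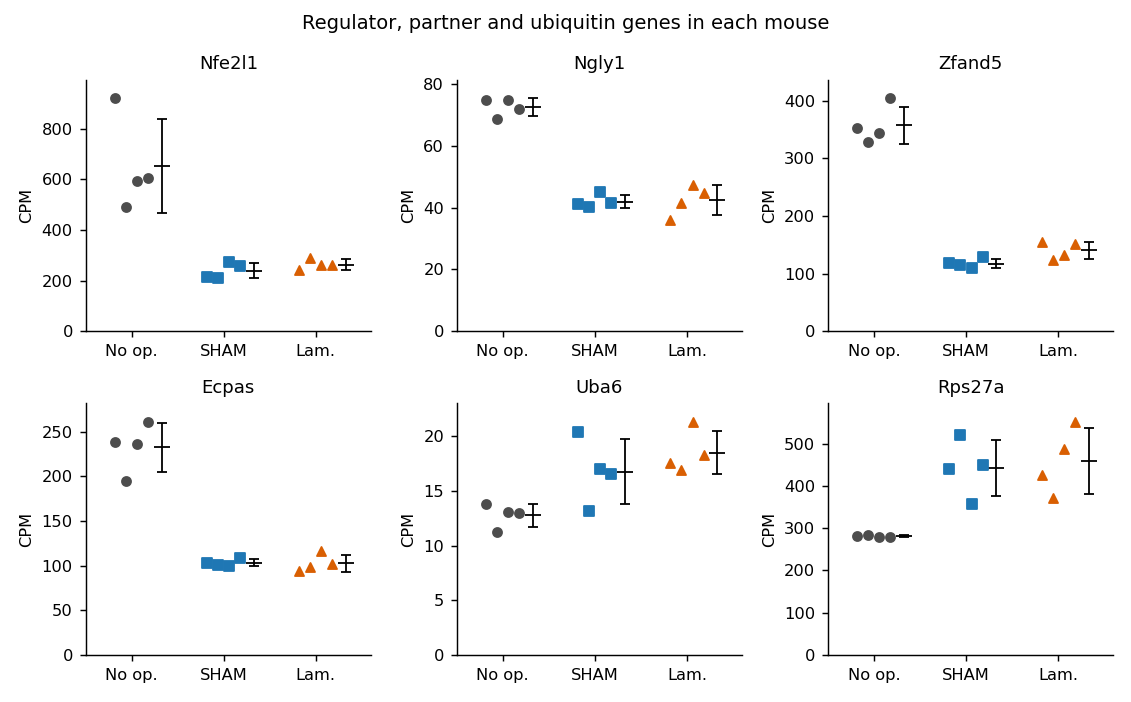
The level in CPM (y axis, from 0) of 6 genes of the proteasome route outside the rule in every library of No operation, SHAM and Laminectomy (x axis), with 1 point per library, 4 per group, and the mean with SD beside them. Nfe2l1, Ngly1, Zfand5 and Ecpas are lower, and Rps27a higher, in all 8 operated libraries than in any No operation library, while 1 SHAM library overlaps No operation for Uba6.

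Within the groups the members moved together. No operation 1 held the highest level of its group for 31 of the 46 members tested, while it was highest for 33.4% of all genes tested. SHAM 4 was highest for 37 members, beside 23.1% of all genes, and Laminectomy 1 for 37, beside 33.7%. The median deviation of the members from the group median was 0.17 in No operation 1, -0.22 in No operation 2, 0.18 in SHAM 4 and 0.16 in Laminectomy 1 on the log2 scale. Over all genes tested the same 4 libraries deviated by 0.03, -0.03, 0.01 and 0.00.

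No operation 2 also had the highest sum of neutrophil markers in its group, at 2123 CPM beside 20.4 to 804 CPM, and of cycling-cell markers, at 360 CPM beside 9.32 to 134 CPM. No operation 3 came second in both. Without these 2 libraries, an alternative added after the data were seen, 3 members were higher and 17 lower in SHAM, and 2 were higher and 12 lower in Laminectomy. Over all genes that fit called 3824 higher and 3520 lower in SHAM and 3683 higher and 3492 lower in Laminectomy. No operation 1 had the group's highest sum of macrophage and monocyte markers, at 1758 CPM beside 676 to 1269 CPM. Its fibroblast sum was also the highest, at 27811 CPM beside 8521 to 26702 CPM. Without No operation 1, 3 members were higher and 9 lower in SHAM, and 3 higher and 6 lower in Laminectomy. All genes then split as 3787 higher and 3732 lower in SHAM and 3553 higher and 3573 lower in Laminectomy.

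**Figure D5:**
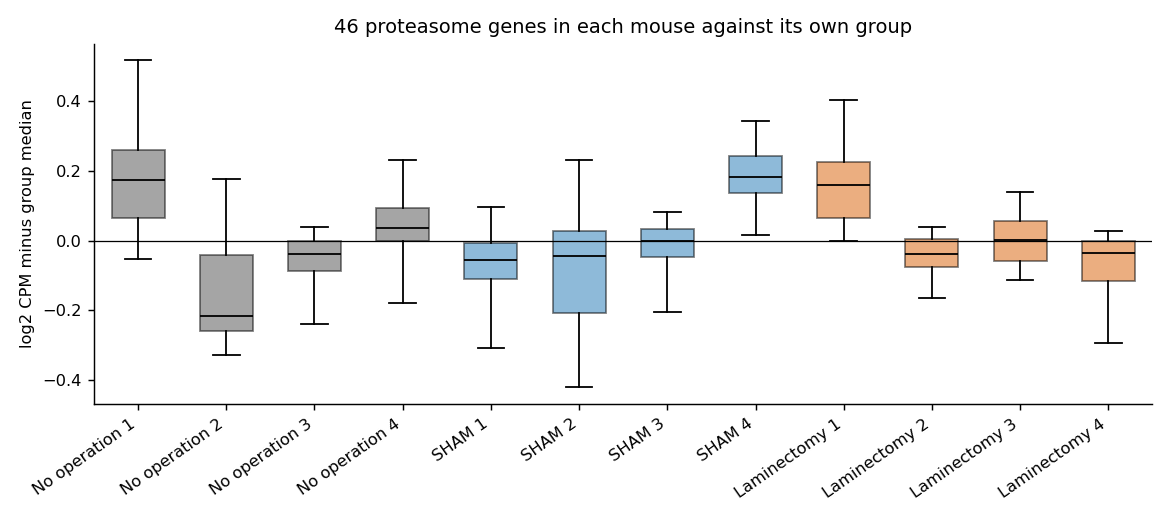
The log2 CPM of 46 proteasome genes in each library minus the median of its own group (y axis), for 12 libraries (x axis), where boxes run from the 25th to the 75th percentile of the genes, the line is the median and whiskers reach the 5th and 95th percentiles. No operation 1, SHAM 4 and Laminectomy 1 lie above their groups and No operation 2 lies below.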

How the data were processed

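Bulk RNA-seq was measured in 12 samples, 4 per group. Per the submitters' processing notes the reads were aligned with STAR 2.6.1b to GRCm38 (mm10) and counted with featureCounts 2.0.1. The kit was stranded, and the study's methods state that the counter ran with its default settings. Those give whole counts, yet 10.2% of the values in the deposited table are not whole, and how they arose is not given in the sources used here. The authors' values were handled like expected counts and rounded to whole numbers. Genes were filtered with filterByExpr (14765 of 18996 kept) and fitted with edgeR 4.0.16 (R 4.3.3), TMM factors and the quasi-likelihood test over all 12 samples, with Benjamini-Hochberg adjustment over all genes tested. DESeq2 1.42.0 was an alternative. Ratios used a prior count of 2 in the log2 test. Genomic overlaps came from GENCODE M21, and near-identical transcripts (95% identity over 500 bases or more) from BLAST 2.17.0.

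Groups were taken from the labels, and the closest replicates differed by more than sampling noise. The members and lists were chosen with earlier results of these data known. Values in every sample are given for the members with the highest and lowest fold change of each role, the catalytic subunits, the activators and the inhibitor, the genes known from single tissues, the 3 members with the smallest p between Laminectomy and SHAM, and, outside the rule, the 2 genes of each list with the largest fold change. Some genes of these lists are not reported here. Of the lists checked only for tissue makeup, 1 of 6 neutrophil and 4 of 5 T and NK cell markers tested were higher in either operated group and none was lower, and 1 of 5 endothelial markers was lower in either and none higher. The alternatives were other size factors, filters, fold thresholds, sample sets and a replicate block.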

Additional observations from a re-analysis of the deposited data

Results flagged for a closer look

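Dixon's test marked 11 values in 147 groups of 4 libraries, where about 5% are marked by chance. In No operation, Psma2 (93.1 CPM) and Psmd5 (39.97 CPM) stood high in No operation 1, and Psmc5 (99.4 CPM) stood low in No operation 2. In SHAM, Psma5 (110.5 CPM) was high in SHAM 4, Psmg3 (12.3 CPM) was high in SHAM 2, and Psme2b (0.107 CPM) was low in SHAM 2. In Laminectomy, Psma4 (105.6 CPM), Psmd13 (88.7 CPM) and Psme2 (98.9 CPM) were high in Laminectomy 1, and Psmc6 (107.9 CPM) and Psme4 (123 CPM) were high in Laminectomy 3. Each was far from its 3 neighbours, with a gap of more than 0.83 of the group's range. For Psme2, the next Laminectomy library had 69.0 CPM.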

How the results depend on the processing

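The main counts were 4 higher and 11 lower in SHAM and 4 higher and 8 lower in Laminectomy. Of the 14765 genes tested, 3799 were higher and 3703 lower in SHAM, and 3578 higher and 3605 lower in Laminectomy. Without composition scaling the lower counts were 5 in SHAM and 1 in Laminectomy, and 9 were higher in Laminectomy. All genes then gave 2671 lower in SHAM, with 2347 lower and 5456 higher in Laminectomy. A minimum log2 fold change of 1 left 1 higher and 1 lower in each comparison. The higher member was Psma8, which had a few counts per library. Among all genes that minimum left 2297 higher and 2292 lower in SHAM, and 2155 higher and 2168 lower in Laminectomy. No minimum gave 18 members lower in SHAM, with 14 lower and 6 higher in Laminectomy. Its counts over all genes were 4529 lower in SHAM, with 4449 lower and 4364 higher in Laminectomy. Leaving out 1 library gave 3 to 5 higher and 9 to 15 lower in SHAM, and 1 to 4 higher and 6 to 12 lower in Laminectomy, where the 1 came without Laminectomy 1. Those fits called 3484 to 3928 of all genes higher and 3482 to 3770 lower in SHAM. For Laminectomy they called 3238 to 3738 higher and 3280 to 3678 lower. Without No operation 2 and 3, 17 were lower in SHAM and 2 higher in Laminectomy. Among all genes that fit called 3520 lower in SHAM and 3683 higher in Laminectomy. No member was called between Laminectomy and SHAM in any of these fits.

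Samples that share a replicate number had correlations of -0.23 to 0.35 in their deviations from the group means. Samples with unlike numbers were not compared, so whether the numbers pair the samples was not tested. With the replicate block 3 members were higher and 11 lower in SHAM, and 3 higher and 8 lower in Laminectomy. Across all genes the block gave 3771 higher and 3671 lower in SHAM, and 3571 higher and 3582 lower in Laminectomy.

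The log2 ratios were recomputed with another prior count and without each library. Without 1 library Psmb8/Psmb5 ran from 1.42 to 1.75 in SHAM and 0.81 to 1.18 in Laminectomy, Psmb9/Psmb6 from 1.10 to 1.57 and 0.65 to 1.12, and Psmb9/Psmb6 of Laminectomy against SHAM from -0.55 to -0.32. Unadjusted p-values of these crossed 0.05 in either direction. Psmb10/Psmb7 ran from 1.69 to 2.00 in SHAM and 1.15 to 1.42 in Laminectomy against No operation.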
